A study of Mus musculus with 72 samples.

Results

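Gene expression was compared in the kidney of aged mice that had eaten the reduced form of coenzyme Q10 (QH2, ubiquinol) or a control diet for 14 months, with 3 arrays against 3. These 6 arrays are part of a series of 72, of which 18 are from kidney. They were taken by their labels for tissue, diet and duration, so no measured value entered the choice. All mice were females of the strain SAMP1 (senescence accelerated mice prone 1), an inbred line bred for early ageing. They started the diets at 4 weeks of age and were killed after 14 months, at 15 months of age. The QH2 group consumed 500 mg of QH2 per kg of body weight and day, estimated from mean food intake and mean body weight, and the control group ate a respective control diet. The other kidney groups were controls and QH2 at 6 months (killed at 7 months of age) and the oxidised form (Q10, ubiquinone) at the same dose for 6 or 14 months, with 3 mice each. Mice were kept under specific pathogen-free conditions, in cages of 3 to 6 whose members stayed together, so effects of cage and of diet cannot be told apart here. Total RNA of whole kidney was hybridised, 1 array per sample, so fewer cells of a type and less RNA per cell cannot be told apart in any value below.

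Coenzyme Q carries electrons from complex I, complex II and several dehydrogenases to complex III in the inner mitochondrial membrane, and it cycles between its reduced and oxidised form as it does so. The reduced form is also a lipid-soluble antioxidant. Kidney tubules are rich in mitochondria, because salt and solute transport runs on the ATP they make. Cells watch the folding of their proteins with dedicated programmes: the unfolded protein response, in which the sensors IRE1, PERK and ATF6 raise the chaperones of the endoplasmic reticulum, and the heat shock response, in which HSF1 raises those of the cytosol.

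No probe set (a set of short probes for 1 transcript) passed the test between QH2 and control at 14 months. Of 27022 probe sets tested, 0 (0%) had an adjusted p under 0.05 by limma with Benjamini-Hochberg adjustment, and the smallest adjusted p was 0.509. At an unadjusted p under 0.05 there were 1577, against 1351 that the threshold alone would give, with 913 higher and 664 lower on QH2. The 95% interval of a log2 difference had a median half-width of 0.46, and 576 probe sets differed by at least 1 on the log2 scale. The median difference over all probe sets was 0.01. The words "higher" and "lower" below therefore give the side on which the QH2 arrays lay and not a difference that passed. Counts in a list of genes are to be read against the shares over all probe sets. Of these 48.3% lay lower and 51.7% higher on QH2, 5.13% lay lower and 6.28% higher with no overlap between the 3 QH2 and the 3 control arrays, and 2.46% lay lower and 3.38% higher at an unadjusted p under 0.05.

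Pairwise correlations of the log2 values of the 6 arrays ran from 0.955 to 0.972. The ratio of 3' to 5' signal of Actb, a sign of RNA integrity that rises as RNA is degraded, was 2.1 to 2.48 in the controls and 2.05 to 3.37 on QH2, with the highest value in QH2 array 2. QH2 array 1 stood apart in deposited level, with a mean signal of 263.8 against 151.3 and 156.7 in the other QH2 arrays and 193.8 to 226.2 in the controls. Without it 2 probe sets passed, for Scel (log2 difference -2.25, limma adjusted p 0.0141) and Cgnl1 (-3.20, adjusted p 0.0141), both lower on QH2.

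The tissue label held against kidney markers, which lay at like levels in both groups. Umod, the protein of the thick ascending limb, was at 8460, 8630 and 7890 units of normalised signal in the controls and 8850, 7990 and 8560 on QH2. Slc34a1, the phosphate transporter of the proximal tubule, was at 6140, 6030 and 5700 against 6450, 5640 and 6050. Slc12a3 of the distal tubule, Slc5a2 of the early proximal tubule, Aqp2 of the collecting duct and Atp6v1b1 of the intercalated cell overlapped between the groups too, with log2 differences of 0.19, 0.10, -0.22 and 0.10.

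Genes of the unfolded protein response lay mostly lower on QH2. Of 30 listed genes, all tested, 25 lay lower on QH2 and 5 higher, where 48.3% and 51.7% of all probe sets did, and the median log2 difference was -0.21. In 14 of the 30 the 3 QH2 arrays lay below all 3 control arrays, as in 5.13% of all probe sets, and in 0 above them. At an unadjusted p under 0.05 there were 13 lower, against 2.46% of all probe sets, and 0 higher. No gene passed after adjustment over all probe sets. In the values as deposited the count of 13 was 8. The list's median per array was -0.25, -0.22 and -0.27 in the 3 QH2 arrays, against 0.01, 0.03 and -0.04 in the controls, so QH2 array 1 lay with its group here.

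Xbp1 had the smallest p of all probe sets. It encodes the transcription factor that IRE1 activates by splicing its mRNA. Its signal (probe set 1437223_s_at) was 2760, 2590 and 2320 in the controls and 1950, 1680 and 1870 on QH2. The QH2 arrays lay below every control array, 1.39-fold lower (log2 difference -0.48 ± 0.09 SE, limma adjusted p 0.509), and all 4 probe sets of Xbp1 lay lower. The array reads total Xbp1 transcript and not its spliced form. Plasma cells express Xbp1 strongly, and it is also 1 of the 15 genes of the B and plasma cell list, all of which lay lower on QH2 (median log2 difference -1.10). The summed signal of that list was 16236, 9673 and 15026 in the controls and 3865, 10484 and 10113 on QH2. Control array 2, which lay within the QH2 range there, had a median of 0.03 for the unfolded protein response list, against -0.22 to -0.27 in the QH2 arrays. These are the values of 1 array, and the part of plasma cells in them was not tested.

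The main chaperones of the endoplasmic reticulum lay lower with it. Hspa5 (BiP, the Hsp70 of this compartment, 1416064_a_at) was at 3770, 4000 and 3320 in the controls and 2310, 2420 and 2280 on QH2. That is 3700 ± 343 against 2340 ± 72 (SD, n = 3 each), 1.58-fold lower, with a log2 difference of -0.66 ± 0.14 SE and a limma adjusted p of 0.509. A second probe set of Hspa5 lay lower by more (-0.84), and a dim one with a mean signal of 135 in the controls did not (0.08). Hsp90b1, the Hsp90 of the same compartment (1438040_a_at), was at 1140, 1320 and 1700 against 787, 952 and 931. Calr, a calcium-binding lectin chaperone, was at 3500, 3570 and 3510 against 2490, 2800 and 2650 on the probe set with the smallest p (log2 difference -0.42), and differed less (-0.20) on the brightest. Its membrane-bound partner Canx was at 3070, 2970 and 2930 against 2700, 2580 and 2610. In each of these 4 genes the highest QH2 array lay below the lowest control array.

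Manf and Creld2 gave larger differences at lower signal. Manf, a secreted factor induced by stress of the endoplasmic reticulum, was at 995, 1050 and 844 in the controls and 478, 517 and 556 on QH2, 1.86-fold lower (log2 difference -0.89 ± 0.20 SE, limma adjusted p 0.536). Creld2, an induced protein of the same compartment, was at 371, 358 and 358 against 198, 225 and 197, a log2 difference of -0.81 ± 0.23 SE. The spread within each group was small beside that step. Dnajb9, Syvn1 and Sel1l, which deliver misfolded proteins for degradation, had log2 differences of -0.49, -0.45 and -0.32 without overlap. Ddit3 (CHOP), a proapoptotic factor of the PERK branch, was at 126, 147 and 177 against 99.3, 107 and 97.5. The members that did not follow included Pdia3, P4hb, Hyou1 and Edem1, with log2 differences from -0.05 to 0.02. The sensor genes Ern1 (IRE1) and Atf6 were at -0.02 and 0.04, and Asns, an amino acid synthesis gene of the PERK branch, was at 0.45 with overlapping arrays.

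**Figure D1:**
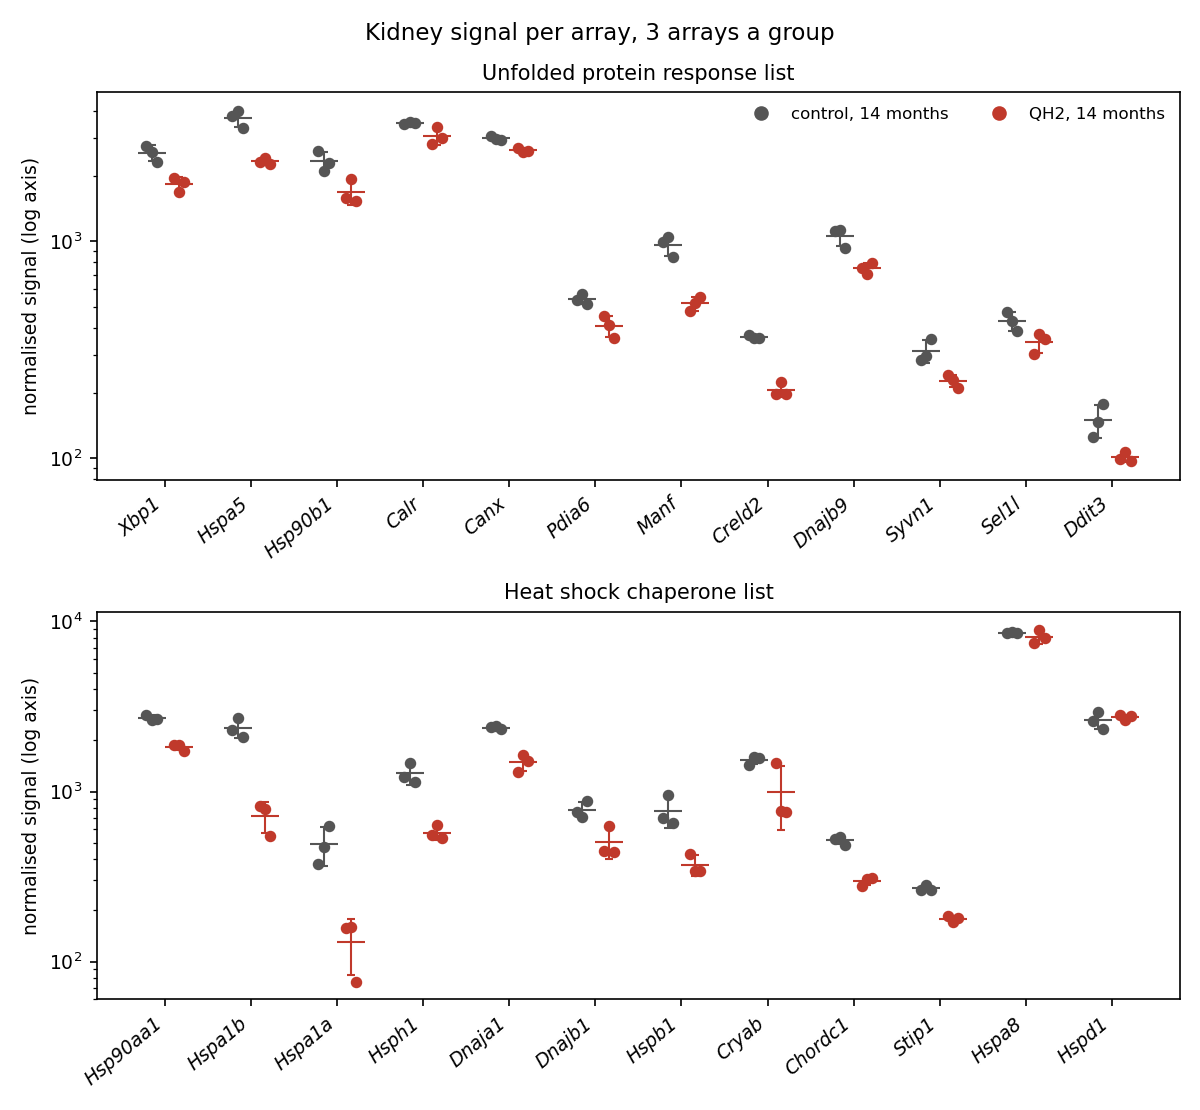
Normalised signal per array (log axis) of 12 genes of the unfolded protein response list (upper panel) and 12 of the heat shock chaperone list (lower panel) in kidney at 14 months. Dots are arrays (3 control, 3 QH2), and bars give the mean and SD. The genes shown were picked with their values known, those of the upper panel all from list members without overlap. In the whole lists 14 of 30 and 15 of 29 genes lay lower without overlap, against 5.13% of all probe sets. The QH2 arrays lie below every control array in all 12 genes of the upper panel and in 9 of the lower one. Cryab, Hspa8 and Hspd1 overlap.

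Promoters of these genes carry shared elements, and a few are shown for that reason. Sequences are from RefSeq on GRCm38.p6 and hold 250 bases before and 50 after the start site. The endoplasmic reticulum stress response element, searched on both strands as CCAAT and CCACG with 9 bases of any kind between them, was found in 39 of 32851 promoters (0.119%). It was found in 8 of the 27 promoters held for the unfolded protein response list (29.6%), those of Calr, Canx, Creld2, Dnajc3, Hsp90b1, Hspa5, Pdia6 and Syvn1. Of these 8 genes 7 were lower without overlap and Dnajc3 overlapped. Over the whole list 14 of 30 genes were lower without overlap, and over all probe sets 5.13%. A link between the element and the differences was not tested. The heat shock element, searched on both strands as GAA, TTC and GAA with 2 bases of any kind between each, was found in 198 of 32851 promoters (0.603%) and in 7 of the 34 promoters of the heat shock list (20.6%), belonging to Chordc1, Dnajb6, Hspd1, Hspe1 and Hsph1. Of the genes with the heat shock element, Hspd1 overlapped between the groups. Both motifs can match the same promoter, though no promoter of the unfolded protein response list held the second. Capitals mark the matches in the sequences of 5 genes whose QH2 arrays did not overlap the controls. They are Hspa5 (chr2:34771840-34772139, plus strand), Hsp90b1 (chr10:86705395-86705694, minus strand), Creld2 (chr15:88819396-88819695, plus strand), Hsph1 (chr5:149636287-149636586, minus strand) and Chordc1 (chr9:18292017-18292316, plus strand).
Hspa5: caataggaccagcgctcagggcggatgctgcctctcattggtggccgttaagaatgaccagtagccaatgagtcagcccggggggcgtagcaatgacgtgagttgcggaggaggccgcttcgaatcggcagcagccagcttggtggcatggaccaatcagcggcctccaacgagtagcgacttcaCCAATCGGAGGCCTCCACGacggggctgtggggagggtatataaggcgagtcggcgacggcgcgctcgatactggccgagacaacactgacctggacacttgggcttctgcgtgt
Hsp90b1: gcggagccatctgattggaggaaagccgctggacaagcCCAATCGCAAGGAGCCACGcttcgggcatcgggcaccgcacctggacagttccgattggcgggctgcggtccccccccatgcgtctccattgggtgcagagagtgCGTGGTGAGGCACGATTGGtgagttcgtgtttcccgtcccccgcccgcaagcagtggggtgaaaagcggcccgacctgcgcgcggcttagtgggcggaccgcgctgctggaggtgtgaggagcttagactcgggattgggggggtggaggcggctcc
Creld2: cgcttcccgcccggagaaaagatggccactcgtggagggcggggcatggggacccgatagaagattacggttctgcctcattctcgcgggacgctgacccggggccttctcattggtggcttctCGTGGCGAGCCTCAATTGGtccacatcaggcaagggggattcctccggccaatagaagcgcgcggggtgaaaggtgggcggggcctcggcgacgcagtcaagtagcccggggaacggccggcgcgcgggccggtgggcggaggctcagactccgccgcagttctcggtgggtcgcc
Hsph1: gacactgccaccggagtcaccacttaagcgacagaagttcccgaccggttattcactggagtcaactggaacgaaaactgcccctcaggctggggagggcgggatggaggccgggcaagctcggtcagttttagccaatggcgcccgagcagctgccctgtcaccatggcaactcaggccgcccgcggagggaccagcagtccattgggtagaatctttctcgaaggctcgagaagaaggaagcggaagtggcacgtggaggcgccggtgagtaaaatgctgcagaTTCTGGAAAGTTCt
Chordc1: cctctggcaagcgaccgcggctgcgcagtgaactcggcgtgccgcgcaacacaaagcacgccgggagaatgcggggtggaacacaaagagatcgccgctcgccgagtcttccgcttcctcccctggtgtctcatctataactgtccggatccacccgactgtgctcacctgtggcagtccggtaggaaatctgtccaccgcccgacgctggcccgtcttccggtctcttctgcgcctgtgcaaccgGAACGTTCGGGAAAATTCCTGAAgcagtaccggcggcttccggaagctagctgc
The match begins 65 bases before the start site in Hspa5, 126 before it in Creld2, and 212 and 107 before it in the pair of matches of Hsp90b1. In Chordc1 a run of 3 overlapping matches spans the start site, and in Hsph1 the match begins at base 37 of the transcript. These are matches of letters and no evidence of binding in these samples.

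Chaperones of the cytosol lay lower by larger steps. Of 29 listed heat shock genes 23 lay lower on QH2 and 6 higher, with a median log2 difference of -0.43. The QH2 arrays lay below all controls in 15 (5.13% of all probe sets) and above them in 0 (6.28%). At an unadjusted p under 0.05 there were 17 lower (2.46% of all probe sets) and 1 higher (3.38%). No gene passed after adjustment. The array medians of the list were -0.30, -0.38 and -0.55 on QH2 and 0.00, 0.03 and -0.06 in the controls. Without control array 2 or without QH2 array 3 the count of lower genes at an unadjusted p under 0.05 was 10 in place of 17, with the median at -0.42 and -0.36.

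Hsp90aa1, the inducible Hsp90 of the cytosol, was at 2060, 2040 and 2290 in the controls and 1250, 1300 and 1060 on QH2 (1426645_at), 1.77-fold lower. Its 3 probe sets had log2 differences of -0.82, -0.82 and -0.57, and the limma adjusted p of the lowest was 0.509. Hsph1, an Hsp110 that exchanges the nucleotide of Hsp70, was at 1210, 1480 and 1140 against 557, 632 and 532 (log2 difference -1.15 ± 0.34 SE, limma adjusted p 0.74). Hspa1b, the inducible Hsp70, was at 2310, 2690 and 2100 against 825, 788 and 551, a log2 difference of -1.73 ± 0.62 SE with a limma adjusted p of 0.809. Hspa1a, a near-identical copy whose transcripts the probes may not tell apart, was at 376, 474 and 629 against 158, 159 and 76.1. Hspa1b also varied widely among untreated mice of another group. It was at 572, 2520 and 448 in the 3 controls at 6 months, and the fit takes its spread from all 6 kidney groups. With only the 6 arrays of the comparison in the fit, 6 probe sets passed, which were all 3 of Hspa1b (adjusted p 0.0155 to 0.0481), both of Hsph1 (0.0155 and 0.0325) and that of Egr1.

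Co-chaperones lay with them. Chordc1, a partner of Hsp90, was at 529, 544 and 485 in the controls and 280, 306 and 309 on QH2, and Stip1, which passes clients from Hsp70 to Hsp90, was at 265, 281 and 264 against 185, 172 and 181. Dnaja1, an Hsp40, was at 2380, 2420 and 2320 against 1310, 1640 and 1510. None of these 3 overlapped. Hspa4l had a log2 difference of -0.88 and the small heat shock protein Hspb1 of -1.04, also without overlap. The constitutive Hspa8 was at 8520, 8670 and 8520 against 7430, 8950 and 8020, so its arrays overlapped. Of the mitochondrial chaperones on the list, Hspa9 had a log2 difference of 0.23 and Hspd1 of 0.07, both with overlap, and Hspe1 of -0.16 without overlap.

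Immediate early genes, whose transcripts also respond within minutes to handling, lay on both sides. Of 25 tested, 6 were higher and 4 lower without overlap, where 6.28% and 5.13% of all probe sets were. Egr1 was at 145, 148 and 173 in the controls and 381, 310 and 375 on QH2 (log2 difference 1.19 ± 0.60 SE, limma adjusted p 0.856). Fos was at 41.0, 33.4 and 33.8 against 55.8, 58.6 and 79.2. Myc was at 70.0, 65.5 and 59.5 against 32.0, 27.9 and 34.2, and so lay the other way. Their part in the chaperone values was not tested.

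**Figure D2:**
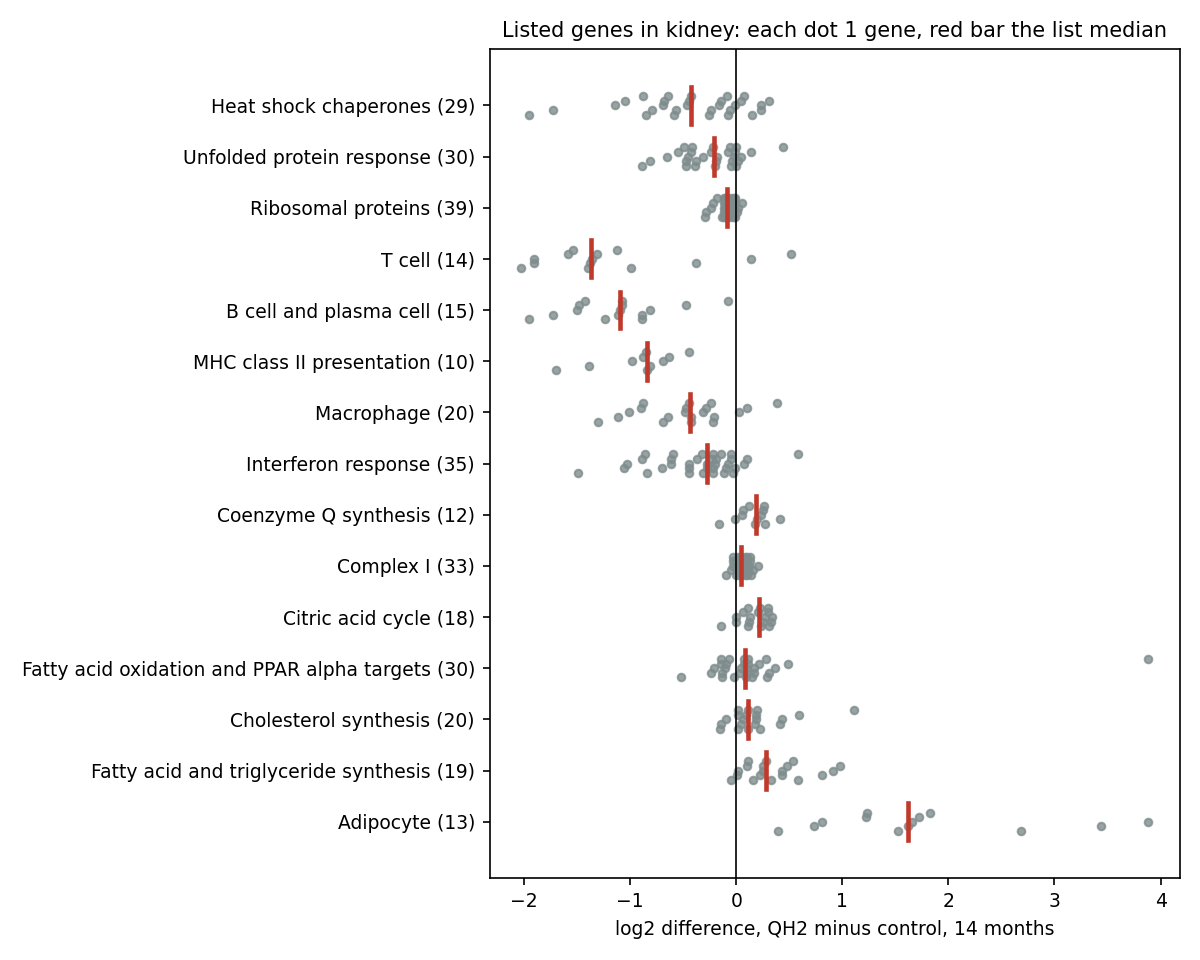
Log2 difference between QH2 and control at 14 months (horizontal axis) of each tested gene of 15 lists, by its brightest probe set. Dots are genes, the red bar is the list median, and the number tested stands in parentheses. The medians run from -1.37 (T cell markers) to 1.62 (adipocyte markers), with heat shock chaperones at -0.43 and the citric acid cycle at 0.21.

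Enzymes of the citric acid cycle lay higher on QH2 by small steps. Of 18 tested genes 15 lay higher and 3 lower, with a median log2 difference of 0.21. The QH2 arrays lay above all controls in 7 (6.28% of all probe sets) and below them in 0 (5.13%). At an unadjusted p under 0.05 there were 9 higher, where 3.38% of all probe sets were, and 0 lower. No gene passed after adjustment. In the values as deposited, where the median of all probe sets stood at -0.14, the list's median was 0.04 and 0 genes had an unadjusted p under 0.05.

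Sucla2, a subunit of succinyl-CoA synthetase, was at 1450, 1620 and 1410 in the controls and 1960, 1870 and 1700 on QH2, a log2 difference of 0.30 ± 0.08 SE (limma adjusted p 0.683). Its partner subunit Suclg1 was at 2840, 2760 and 2850 against 3610, 3340 and 3440. Dlat, the acetyltransferase of the pyruvate dehydrogenase complex, was at 492, 552 and 416 against 600, 625 and 608, and Pdhb of the same complex was at 1350, 1590 and 1490 against 2030, 1660 and 1880. No array of these 4 genes overlapped between the groups. Dlst and Idh3b had log2 differences of 0.27 and 0.20, whereas Ogdh and Mdh2 were at 0.00 with overlap. Slc25a4, the ADP/ATP carrier that exports mitochondrial ATP, was at 2070, 2290 and 2270 against 2610, 2680 and 2820, and its 3 probe sets lay higher without overlap (log2 difference 0.29 ± 0.07 SE, limma adjusted p 0.543).

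The coenzyme Q synthesis list also holds Coq10a and Coq10b, which bind coenzyme Q and do not make it. Of its 12 tested genes 10 lay higher and 2 lower, with a median log2 difference of 0.19, and 1 was higher without overlap (6.28% of all probe sets). In the values as deposited 7 lay higher and 5 lower, with a median of 0.03. Coq8a, an atypical kinase of the synthesis complex, was at 369, 528 and 479 in the controls and 565, 774 and 503 on QH2 (log2 difference 0.41 ± 0.17 SE, limma adjusted p 0.836), so control array 2 lay above QH2 array 3. Coq3, a methyltransferase, was at 102, 107 and 96.7 against 112, 136 and 119. Coq7, Coq6, Coq8b, Pdss2 and Coq10a had log2 differences from 0.17 to 0.27, and Coq9, Coq4, Coq5 and Coq2 from -0.01 to 0.12. Coq10b, which binds coenzyme Q in the membrane, was at -0.16. All of these overlapped.

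Genes of the respiratory chain lay higher in most cases by small steps, with few free of overlap. Complex I had 28 of 33 tested genes higher (51.7% of all probe sets), 2 without overlap (6.28% of all probe sets) and a median log2 difference of 0.05. Complexes III, IV and V had 25 of 31 higher, 2 without overlap and a median of 0.06. Both counts without overlap were near the share over all probe sets. Both medians turned negative in the values as deposited (-0.11 and -0.07, against -0.14 for all probe sets). Enzymes that pass electrons to ubiquinone, such as Sdha of complex II, Etfdh and Prodh, had 12 of 13 higher with a median of 0.11, and -0.04 as deposited. Prodh, proline dehydrogenase, was the 1 member of 13 without overlap (6.28% of all probe sets), at 1000, 1100 and 1070 against 1190, 1400 and 1320. Antioxidant enzymes had a median of 0.02 over 18 genes, with Sod1, Sod2 and Cat at 0.01, 0.00 and -0.02. NRF2 targets had a median of 0.01 over 28 genes, and Hmox1 and Nqo1, a pair of classical ones, were at 0.09 and -0.08. Nfe2l2, which encodes NRF2, was at 951, 1000 and 774 against 796, 730 and 671, with overlap.

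Tkt, counted among the NRF2 targets, was the gene with the smallest p among those higher on QH2. It encodes transketolase of the pentose phosphate pathway, which feeds NADPH supply. Its signal (1439443_x_at) was 1050, 1190 and 1170 in the controls and 3520, 1720 and 1960 on QH2, 2.01-fold higher (log2 difference 1.00 ± 0.19 SE, limma adjusted p 0.509). All QH2 arrays lay above the controls, with QH2 array 1 far above the other QH2 arrays, and a second probe set gave 0.91. Pgd, a gene of the pathway on this list whose enzyme makes NADPH, was at 687, 720 and 772 against 661, 897 and 1090 and overlapped.

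Genes of lipid synthesis lay higher as well. Of 19 genes of fatty acid and triglyceride synthesis 18 lay higher and 1 lower, with a median log2 difference of 0.28, and 6 were higher without overlap (6.28% of all probe sets). In the values as deposited 13 lay higher, with a median of 0.13. Srebf1, the transcription factor of the pathway, was at 207, 262 and 240 in the controls and 357, 295 and 378 on QH2 (log2 difference 0.54 ± 0.20 SE, limma adjusted p 0.836). Dgat2, which makes triglycerides, was at 847, 1260 and 918 against 1320, 1540 and 1300, and Acacb, the acetyl-CoA carboxylase of mitochondria, was at 40.5, 77.2 and 67.9 against 158, 84.9 and 87.2. These 3 did not overlap. Agpat2, an acyltransferase of fat synthesis, was at 213, 576 and 319 against 554, 524 and 900, and Fasn at 214, 696 and 468 against 403, 847 and 1570, so control array 2 reached the QH2 range in both.

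Of 20 cholesterol synthesis genes 17 lay higher with a median log2 difference of 0.11, and 4 were higher without overlap (6.28% of all probe sets); the median was -0.04 in the values as deposited and 0.00 without QH2 array 1. Mvk and Pmvk, successive kinases of the mevalonate pathway, which also supplies the side chain of coenzyme Q, led the list. Mvk was at 45.5, 34.1 and 19.9 in the controls and 83.3, 66.0 and 59.1 on QH2, a log2 difference of 1.11 ± 0.24 SE (limma adjusted p 0.522). Pmvk was at 61.6, 71.2 and 54.7 against 99.4, 101 and 82.5 (0.59 ± 0.14 SE, adjusted p 0.539). Fdft1, squalene synthase, was at 219, 240 and 236 against 301, 330 and 294. Hmgcs1, Idi1, Sqle and Srebf2 lay between -0.15 and 0.02.

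Markers of fat cells moved with the lipid genes. All 13 tested adipocyte markers lay higher on QH2, with a median log2 difference of 1.62, and 2 did not overlap (6.28% of all probe sets). In a fit that took the Actb ratio as a covariate that median was 0.91. Their summed signal was 7838, 19719 and 8018 in the control arrays and 22491, 26077 and 19792 in the QH2 arrays, so control array 2 fell just short of the lowest QH2 array. Adipoq, which only fat cells make in quantity, was at 245, 1070 and 171 against 1560, 1290 and 808. Ucp1, the uncoupling protein of brown fat, was at 1.42, 1400 and 461 against 893, 1210 and 1850, and Cidea was at 0.783, 930 and 168 against 902, 1200 and 836. Control array 1 was thus the lowest in both, and control array 2 lay within the range of the QH2 arrays. Gpd1, glycerol-3-phosphate dehydrogenase, is on this list too and was at 583, 1110 and 756 against 1240, 1280 and 1410. The part of fat tissue in the values of lipid synthesis and citric acid cycle genes was not tested. Control array 2, which carried the fat markers, had a citric acid cycle median of 0.12 and a fatty acid synthesis median of 0.11, against -0.04 and -0.07, and -0.02 and -0.04, in the other controls. Its medians for the unfolded protein response and heat shock lists were 0.03 and 0.03. The other controls were at 0.01 and -0.04, and at -0.001 and -0.06. These are the values of 1 array, and the part of fat tissue in the chaperone lists was not tested either.

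Markers of lymphocytes and antigen presentation lay lower on QH2 with a wide spread among the controls. T cell markers had a median log2 difference of -1.37 over 14 genes, with 2 lower without overlap (5.13% of all probe sets). Cd3e, a chain of the T cell receptor complex, was at 69.0, 42.7 and 145 in the controls and 18.4, 22.3 and 17.9 on QH2 (log2 difference -1.90 ± 0.72 SE, limma adjusted p 0.836). All 15 B and plasma cell markers lay lower, with a median of -1.10 and 5 without overlap (5.13% of all probe sets). Ms4a1 (CD20) was at 216, 88.6 and 305 against 20.3, 73.9 and 63.3, and Igha, the heavy chain of IgA, at 4390, 2680 and 3000 against 789, 2070 and 2110. QH2 array 1 was the lowest of all for this list, and without it the median was -0.53.

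All 10 genes of MHC class II presentation lay lower, with a median of -0.84 and 1 without overlap (5.13% of all probe sets). Cd74, the invariant chain, was at 3330, 1290 and 3500 in the controls and 1550, 1090 and 1620 on QH2 (log2 difference -0.82 ± 0.38 SE, limma adjusted p 0.846). Macrophage markers had a median of -0.44 over 20 genes. In all these lists control array 2 lay with the QH2 arrays: the summed T cell signal was 1147, 425.5 and 1570 in the controls against 341.4, 403.6 and 444.8, and the summed macrophage signal was 8604, 4340 and 11234 against 5075, 4440 and 5363. Without control array 2 the medians were -1.94 for T cells, -1.25 for MHC class II and -0.77 for macrophages, and no gene passed. The same control array that lay high in fat markers thus lay low in immune markers, as the QH2 arrays did. Interferon response genes had 32 of 35 lower and a median of -0.27, with 2 lower without overlap (5.13% of all probe sets), and Ifi27 lay the other way at 426, 803 and 552 against 902, 906 and 769. In the fit that took the Actb ratio as a covariate the medians were -0.11 for macrophages, -0.51 for MHC class II and -0.10 for interferon response genes, and -0.96 for T cells and -1.06 for B and plasma cells.

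**Figure D3:**
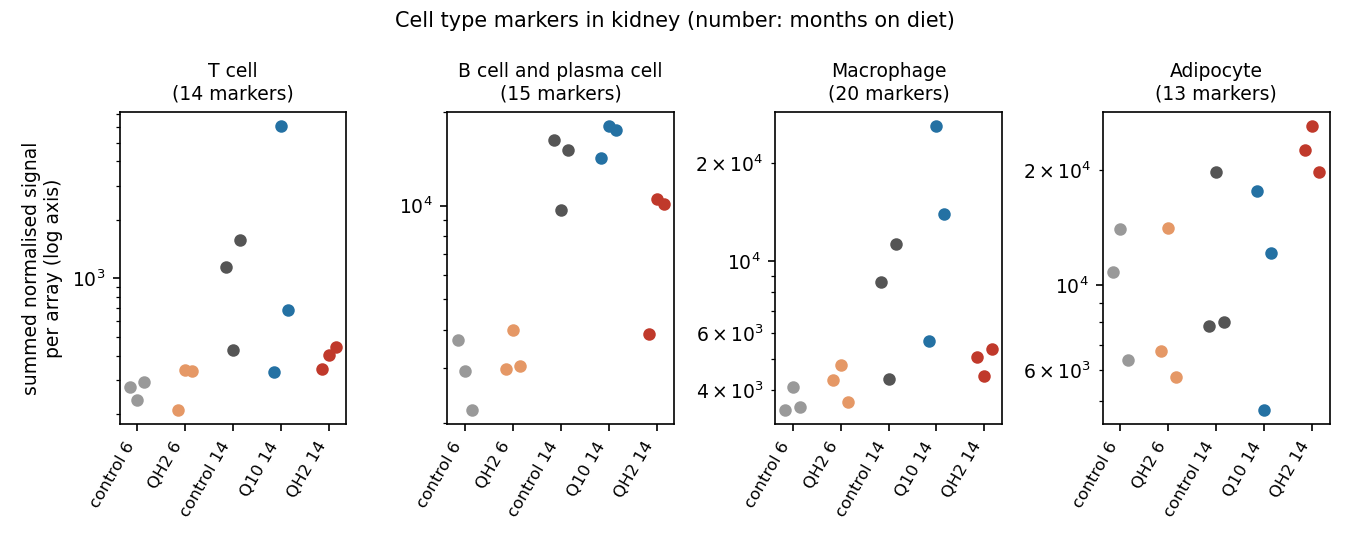
Summed normalised signal per array (log axis) of the tested markers of T cells, B and plasma cells, macrophages and adipocytes in 5 kidney groups of 3 arrays. At 14 months control array 2 (middle dot of its group) lies with the QH2 arrays for T cells (425.5), macrophages (4340) and, nearly, adipocytes (19719), while the other controls lie apart.

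Among the 24 genes with the smallest p, 12 in each direction, some belong to no list above. Cited2, a transcriptional co-regulator that restrains HIF1A, was at 490, 439 and 490 in the controls and 265, 309 and 257 on QH2, 1.71-fold lower (log2 difference -0.77 ± 0.18 SE, limma adjusted p 0.536). Lats2, a kinase of the Hippo pathway, was at 281, 277 and 262 against 168, 167 and 186, and P4ha1, a collagen prolyl hydroxylase of the endoplasmic reticulum, at 262, 232 and 237 against 166, 162 and 125. Neither overlapped. Eif1a, a translation initiation factor, had a log2 difference of -0.51, though its other probe set was at 0.10. Mpp6 (-1.11) and Wdr91 (0.77) were likewise carried by 1 of 3 probe sets, and Tubb4b (1.97) by a dim one while the brightest was at 0.00. Pygl, liver-type glycogen phosphorylase, was at 203, 285 and 230 against 351, 345 and 442. Evpl and Smlr1 were higher by 0.83 and 0.90. Pkn3 (-2.33), Pctp (2.47) and Smyd1 (1.68) lay under 40 units in every control and QH2 array, where the log2 scale with its offset of 1 is least sure. The brighter probe set of Pctp was at 0.29.

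**Figure D4:**
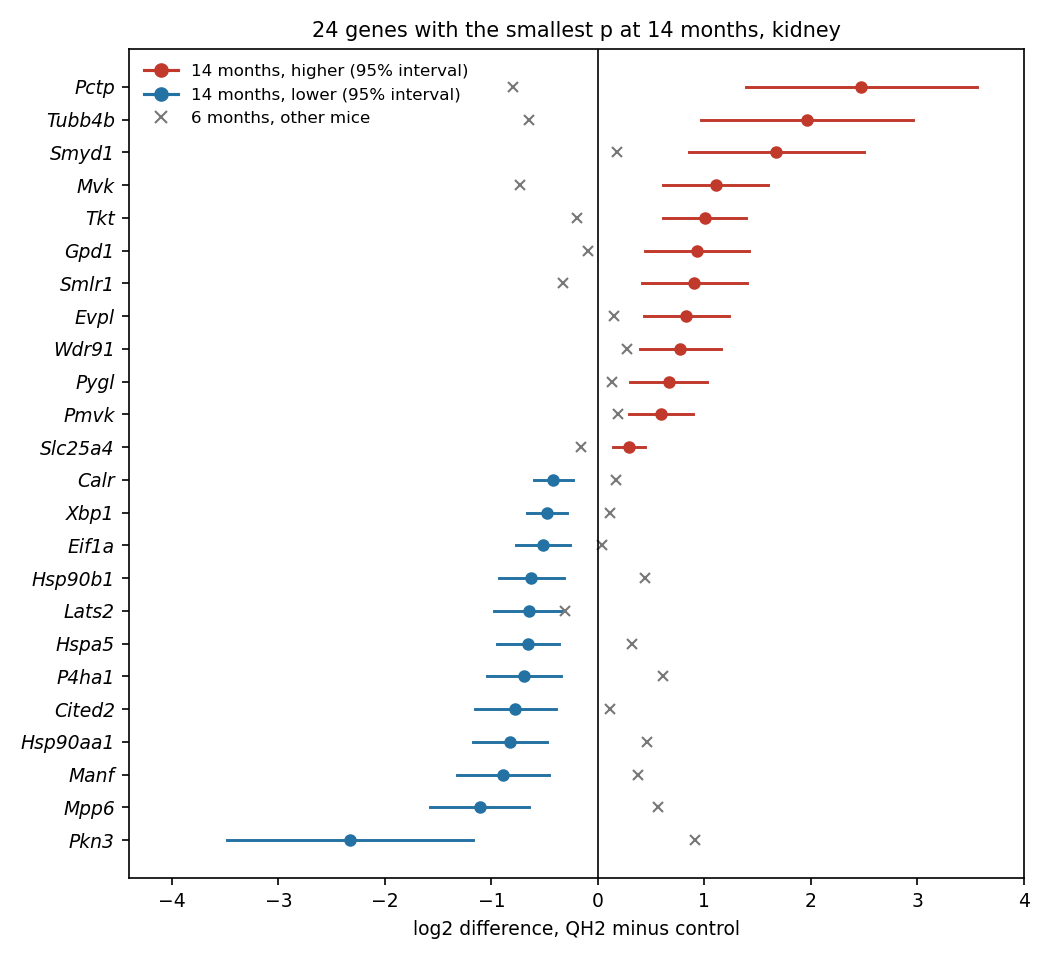
Log2 difference between QH2 and control in kidney for the 24 genes with the smallest p at 14 months. Dots and bars give the 14-month difference with its 95% interval, unadjusted and for genes picked by their p, and crosses give the 6-month difference in other mice. The crosses lie on the other side of 0 for genes such as Hspa5 (-0.66 and 0.32) and Mvk (1.11 and -0.73).

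The same diet after 6 months, in other mice, gave differences of the other sign in several of these lists. At 6 months the unfolded protein response list had 24 of 30 genes higher on QH2, a median log2 difference of 0.16 and 10 genes higher without overlap, where 7.26% of all probe sets were, and 2 lower without overlap, where 8.55% were. Hspa5 was at 2810, 3600 and 2850 in the controls at 6 months and 3940, 3670 and 3920 on QH2. Hspb1 had a log2 difference of 1.55 at 6 months and -1.04 at 14 months. The heat shock list had a median of 0.08 at 6 months, and the citric acid cycle -0.05. The test of the difference between the effects at 14 and 6 months called 0 of 27022 probe sets (0%), with 2377 at an unadjusted p under 0.05 and a smallest adjusted p of 0.144 by limma. Among the chaperones the difference of effects was -0.98 for Hspa5 (limma adjusted p 0.162), -1.27 for Manf (0.204) and -1.97 for Hsph1 (0.231). At 6 months alone 52 probe sets (0.192%) passed, and no gene of the unfolded protein response or heat shock list was among them.

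**Figure D5:**
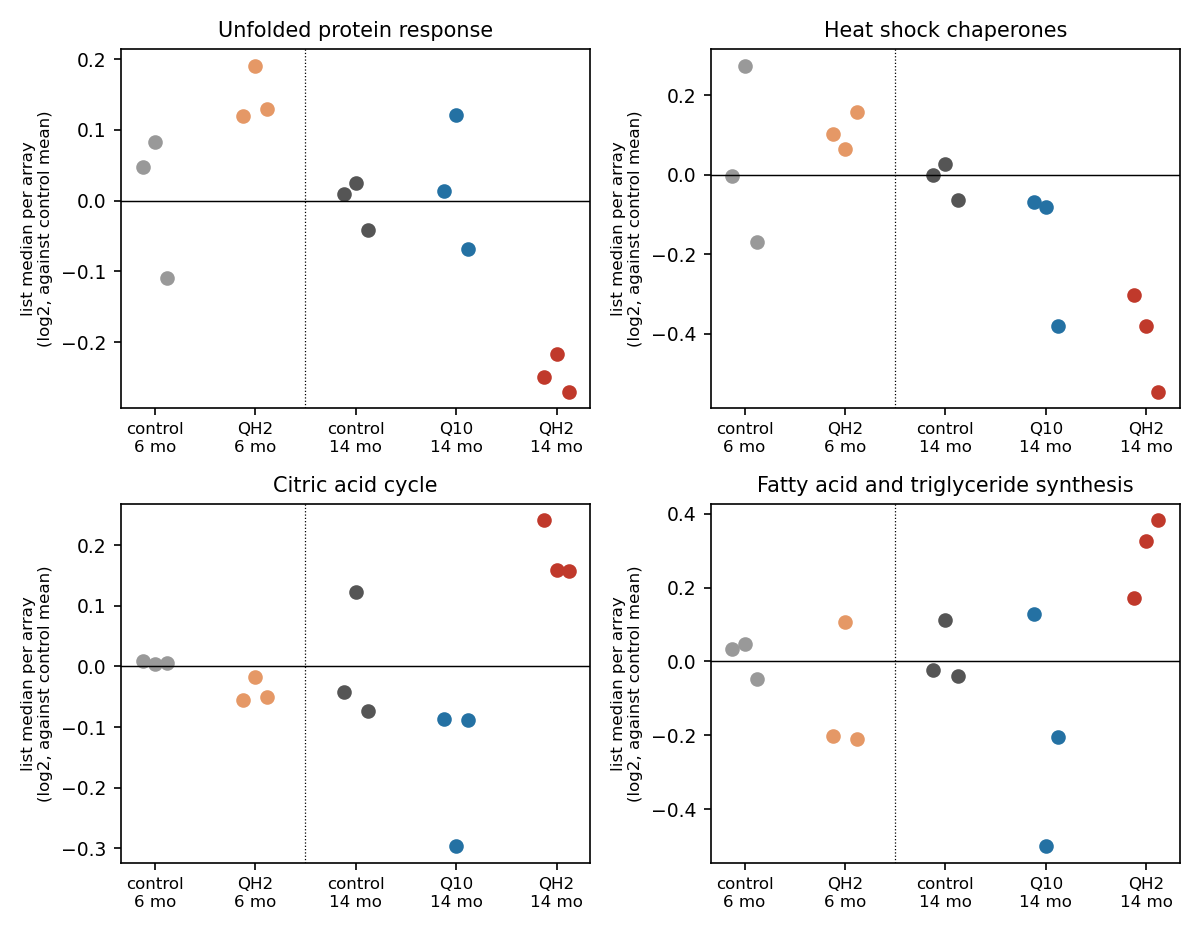
Median per array, over the genes of a list, of the log2 signal relative to the mean of the controls of the same duration (vertical axis), for 4 lists and 5 groups of 3 arrays. At 14 months the QH2 arrays lie at -0.25, -0.22 and -0.27 for the unfolded protein response and at 0.24, 0.16 and 0.16 for the citric acid cycle, outside the range of the controls; at 6 months they lie on the other side of 0 in both.

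At the same dose and duration the reduced and the oxidised form could be compared directly, as 1 pair of compounds that differ by the redox state of their quinone ring. The QH2 arrays are those also compared with the controls above, so calls for lists or genes picked there are not independent evidence. QH2 against Q10 at 14 months called 1633 probe sets by limma, 1075 higher on QH2 (3.98%) and 558 lower (2.06%). Of these calls 65.8% were higher on QH2, against 24.2% of 62 calls in the values as deposited and 79.7% of 2022 with arrays scaled to a common median. The count leaned on single arrays: it was 525 without Q10 array 2 and 3088 without Q10 array 1, and it was 0 with only these 6 arrays in the fit. Q10 array 1 carried adrenal markers, at a summed signal of 18380 against 88.86 to 188.5 in all QH2 and control arrays at 14 months (array 3 of Q10 at 6 months, not in this comparison, was at 4096), and Q10 array 2 had the highest T cell sum of the arrays plotted, 6109.

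Of the 30 genes of the unfolded protein response, 7 were called lower on QH2 than on Q10 (2.06% of all probe sets) and 0 higher (3.98%). Xbp1 was at 2510, 2680 and 2310 on Q10, a log2 difference between QH2 and Q10 of -0.45 (limma adjusted p 0.00748). Hspa5 was at 3080, 4250 and 3650 on Q10 (-0.63, adjusted p 0.013), and Manf, Hsp90b1 (1415889_a_at) and Creld2 differed by -0.82, -0.62 and -0.86 (adjusted p 0.0248, 0.00534 and 0.0345). For Xbp1 and Hspa5 every QH2 array lay below every Q10 array. The heat shock list held 1 call of 29, Hsp90aa1, lower on QH2, which is near the 2.06% of all probe sets. Hsph1 (-0.71, limma adjusted p 0.231) and Hspa1b (-0.99, adjusted p 0.376) did not pass. Their 95% intervals, -1.43 to 0.00 and -2.28 to 0.30, are too wide to show that the compounds act alike on them.

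In the citric acid cycle 10 of 18 genes were called higher on QH2 than on Q10 (3.98% of all probe sets) and 0 lower (2.06%). Among the 10 were Sucla2 (0.67, limma adjusted p 0.00059) and Suclg1 (0.53, adjusted p 0.00778). The list's median per array on Q10, relative to the controls, was -0.09, -0.30 and -0.09, so Q10 array 2 lay lowest. With only the groups compared in the fit, 0 probe sets passed between QH2 and Q10. Coq9 (0.56, limma adjusted p 0.00444) and Coq8a (0.66, adjusted p 0.0309) were the 2 calls among the 12 tested genes of the coenzyme Q synthesis list (3.98% of all probe sets). Tkt (1.02, adjusted p 0.00511) and Pmvk (0.76, adjusted p 0.00625) were called higher too. Q10 against control at 14 months shares its controls with the comparison reported here, so its values are only set beside it. The medians for Q10 against control were 0.01 in the unfolded protein response, -0.19 in the heat shock list and -0.14 in the citric acid cycle, and those for QH2 against control were -0.21, -0.43 and 0.21.

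The controls themselves differed between 14 and 6 months in several of these genes; this comparison also uses the 14-month controls, so its values too are only set beside the others. It called 1275 probe sets higher (4.72%) and 1261 lower (4.67%) at 14 months. Tkt was at 3180, 3100 and 3030 in the controls at 6 months, a log2 difference of -1.45 to the controls at 14 months (limma adjusted p 0.000458), and at 3520, 1720 and 1960 on QH2 at 14 months. Xbp1 was at 1940, 2210 and 1870 in the younger controls, and the older controls were higher by 0.35 on the log2 scale (adjusted p 0.0207); the older mice on QH2 were at 1950, 1680 and 1870. Mvk (-1.46, adjusted p 0.00238), Slc25a4 (-0.34, adjusted p 0.00917) and Pmvk (-0.52, adjusted p 0.0303) were lower in the older controls, and Calr (1433806_x_at, 0.76, adjusted p 0.000241), Cited2 (1.13, adjusted p 0.00238) and Lats2 (0.61, adjusted p 0.0211) were higher. Hspa5 (0.26, adjusted p 0.234) and Manf (0.19, adjusted p 0.595) did not pass between the ages. Of the B and plasma cell markers 12 of 15 were called higher in the older controls, with a median log2 difference of 3.00.

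Markers of kidney segments lay on both sides. Of the 13 markers of the distal convoluted and connecting tubule 11 lay higher with a median log2 difference of 0.20 and 4 without overlap (6.28% of all probe sets), among them Slc8a1, the sodium-calcium exchanger, at 535, 630 and 456 in the controls and 657, 705 and 749 on QH2. Of 13 intercalated cell markers 11 lay higher (median 0.20), 3 without overlap (6.28% of all probe sets). By contrast 10 of 12 late proximal tubule markers (median -0.15) and 10 of 14 of the collecting duct principal cell (median -0.16) lay lower, none of these without overlap. In the values as deposited the medians of the distal and intercalated lists were 0.04 and 0.05. For the late proximal and principal cell lists QH2 array 1 lay on the other side, with array medians of 0.18 and 0.22. Without QH2 array 2 the medians of these lists were -0.01 and -0.02. Podocyte markers had a median of 0.16 over 10 genes with 1 higher without overlap (6.28% of all probe sets), and endothelial markers of -0.01 over 17. Collagen and matrix genes had a median of 0.01 over 37 genes. Of 21 genes of tubular injury and repair 17 lay lower and 4 higher, with a median of -0.11 and 2 lower without overlap (5.13% of all probe sets). Among them Havcr1 (KIM-1) was at 29.1, 21.8 and 56.8 against 40.4, 25.3 and 27.6 and Lcn2 (NGAL) at 28.6, 42.2 and 95.5 against 91.9, 10.2 and 43.1, so both overlapped. Ribosomal protein genes lay lower in 36 of 39, with a median log2 difference of -0.09, with 7 lower without overlap (5.13% of all probe sets). Of the 14 core clock genes tested, 3 were higher without overlap (6.28% of all probe sets). They were Per1, Cry2 and Per3, with Per1 at 83.0, 122 and 94.9 against 142, 222 and 136. The median of that list, 0.08 over 14 genes, turned to -0.08 in the values as deposited.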

How the data were processed

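The deposited values are Affymetrix Mouse Genome 430 2.0 signal intensities on a linear scale, computed by the authors with GCOS per the submitters' processing notes. The sources used here do not give its version or settings. The deposited intensities were not on a common level across arrays. The 18 kidney arrays were quantile normalised, 1 was added, and log2 was taken. The 64 control probe sets and those with a mean at or below the 40th percentile were left out, which left 27022 of 45101. Means of 6 groups were fitted with limma 3.58.1 in R 4.3.3 (eBayes with an intensity trend), so all kidney groups share 1 estimate of the spread; p-values were adjusted by Benjamini-Hochberg over all tested probe sets and called under 0.05. The fit was run on simulated arrays with noise drawn independently for each probe set, so shifts shared by many genes were not covered. With 3 arrays against 3, the smallest 2-sided exact permutation p for a single value is 0.1. The number of arrays limits the precision, and the p-values rest on the spread within the 6 kidney groups. The labels do not tie arrays to litters or hybridisation days, so the part of these in that spread or in the differences could not be told apart.

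Gene names come from the platform annotation, updated through Entrez numbers in RefSeq. A symbol was given to 34958 probe sets, 932 had several and 9211 none. Listed genes are shown by their brightest probe set. The genes with the smallest p, 12 in each direction, were named by rule with the probe set of smallest p, and further list members were named after their values were seen. The members and lists were chosen with earlier results of these data known. The 54 lists hold 36 pathways and 18 marker sets, and 1056 of their 1176 genes are on the array. Alternatives were the values as deposited, median scaling, another offset and other filters, no intensity trend, only the groups compared, array weights, the Actb ratio as a covariate, a replicate block and each array left out.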

Additional observations from a re-analysis of the deposited data

Results flagged for a closer look

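In 5 lists the medians of all 3 QH2 arrays lay on one side of the controls at 14 months and on the other side at 6 months. The value given is the median, over the genes of the list, of the log2 difference between the QH2 effects at 14 and at 6 months. It was -0.40 for the unfolded protein response, -0.13 for ribosomal proteins, 0.26 for the citric acid cycle, 0.17 for coenzyme Q synthesis and 0.15 for the enzymes that feed electrons to ubiquinone. The difference between the durations was not tested for these lists, and over single probe sets 0 of 27022 passed by limma, with 2377 at an unadjusted p under 0.05.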

How the results depend on the processing

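QH2 against control at 14 months gave 0 calls under every alternative except the fit of only the groups compared (6) and that without QH2 array 1 (2), so leaving out 1 array gave 0 to 2. The difference of the QH2 effect between 14 and 6 months gave 5 calls with only the groups compared, 26 with array weights and 0 to 3 with 1 array left out. QH2 against Q10 at 14 months gave 1633 calls, and 62 in the values as deposited, 683 without the intensity trend, 0 with only the groups compared, 3434 with array weights and 525 to 3088 with 1 array left out (747 and 720 without QH2 array 1 or 3, 936 without Q10 array 3). The causes were not tested.

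The values as deposited moved the median of all probe sets to -0.14, and list medians with it. Replicate numbers did not pair the samples: the correlations of same-numbered QH2 and control arrays were -0.04, -0.03 and 0.06. With the replicate block QH2 against control gave 0 calls, the difference between durations 0 and QH2 against Q10 1225. The genes named by rule kept their direction under every alternative run, and none passed. They were picked by their p in these same arrays, so the kept direction is little evidence for them. Probe sets near background limit what is seen of dim genes.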
